A study of Homo sapiens with 12 samples.

Results

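The genes described here are the factors that make ribosomes: proteins of the nucleolus that transcribe, cut, modify and fold the ribosomal RNA precursor and assemble it with ribosomal proteins. They were chosen as 60 named genes of precursor processing and ribosome assembly, and 50 of them are among the 5759 genes of the authors' deposited table. The other 10 (POP5, FBL, NOP56, NOP58, NHP2, NOLC1, UTP6, TSR1, NOL9 and PPAN) are not analysed here. Every gene in that table had a false discovery rate (FDR) under 0.05 in at least 1 comparison. Each also had a log2 fold change of at least 1 in size in some comparison, and 5757 of the 5759 met both bounds together. So the 50 genes are listed because they changed somewhere, and the counts below describe a selected set. BRIX1, DDX10 and POP7 were put among the 60 for the way they differed between the compounds, so their difference is given as a description with no test.

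RNA was sequenced from MOLT4, an established human T lymphoblast line from an acute lymphoblastic leukaemia, labelled wild type in all samples. The 12 samples form 4 groups of 3. Vehicle (DMSO) and SNS-032 (1 µM) were each applied for 6 h, and compound 955 (0.1 µM) for either 1 h or 6 h. SNS-032 inhibits cyclin-dependent kinases, among them CDK9, which releases paused RNA polymerase II. Compound 955 is a conjugate of the plant-derived electrophile piperlongumine with SNS-032 as its target-binding part, made for targeted protein degradation, and the study compared it with that parent inhibitor. Doses differ between the compounds, so compound and dose cannot be told apart. DMSO was collected only at 6 h, so treatment and time in culture cannot be told apart in the comparison of 955 at 1 h. The same holds for 955 at 6 h against 1 h. The labels do not say whether the replicates were separate cultures, so the p-values measure the spread between these samples, which may be technical.

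Ribosome assembly starts in the nucleolus, where RNA polymerase I transcribes a long precursor of the ribosomal RNAs. Small nucleolar RNA particles of the box C/D and H/ACA classes methylate it and convert uridines to pseudouridine, the U3 particle and the small subunit processome fold and cut the part for the small subunit, and other factors, among them the PeBoW complex, assemble the large subunit. The RNA-protein enzyme RNase MRP cuts between those parts. Dividing leukaemia cells depend on a high rate of this assembly, and many of its genes are known targets of MYC.

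The authors' deposited table gives, for each gene and each treated group against DMSO, a log2 fold change, an F statistic, a p-value and an FDR, with no values per sample, so the depth is unknown and single replicates are not shown. Here a gene passes the threshold if it has an FDR below 0.05 together with a log2 fold change of at least 1 in size. The implied standard error (SE) was computed here from the fold change and F. For the 50 genes its median was 0.21 after 6 h of 955 and ran from 0.11 for NOP53 to 0.55 for RRS1. The labelled cell type could be checked only in part: 7 of 18 T lymphoblast markers are listed, with average levels from 3.74 for RAG2 to 10.1 for ZAP70 (log2 CPM), beside 2 of 17 markers of other cells, COL1A1 at 3.18 and CD79A at 3.94. The 13 mitochondrially encoded mRNAs had median log2 fold changes of 0.67, 2.07 and 2.35 after 1 h of 955, 6 h of 955 and 6 h of SNS-032. Values scaled to a library's total cannot tell less RNA per cell from fewer cells, and do not show a fall shared by all RNA.

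After 6 h, nearly all of the 50 listed genes were lower with either compound. In the authors' deposited table, 46 of the 50 genes were lower past the threshold after 955 and 0 higher, where 50.1% of all listed genes were lower and 35.2% higher. After SNS-032, 48 were lower and 1 higher, beside 52.5% and 37.8% of all listed genes. Being listed nearly required passing this threshold in some comparison (5757 of 5759 genes). The number of calls was thus largely set by the listing, and their direction was not. The genes lower past the threshold with both compounds were 45 of the 50, beside 44.8% of all listed genes, and the comparisons share their DMSO samples. The median log2 fold change of the 50 genes was -1.89 with 955 and -1.83 with SNS-032, against -1.03 and -1.07 over the whole table. This corresponds to a median of 26.9% of the DMSO level with 955 and 28.2% with SNS-032, and 22 and 21 of the genes were below 25% of that level.

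The size of the fall depended on the scaling and its direction mostly did not. When the median of all listed genes was set to 0, which removed median values of -1.03 for 955 and -1.07 for SNS-032, 46 and 47 of the 50 genes were still below 0, with 22 lower and 1 higher past the threshold for 955 and 19 lower and 1 higher for SNS-032. When the mitochondrial mRNAs were set to 0 instead, all 50 were lower past the threshold with both compounds. That scale took 2.07 for 955 and 2.35 for SNS-032 from the value of every listed gene. The share of all listed genes lower on it was not computed, so this count is not a result particular to the 50 genes.

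**Figure D1:**
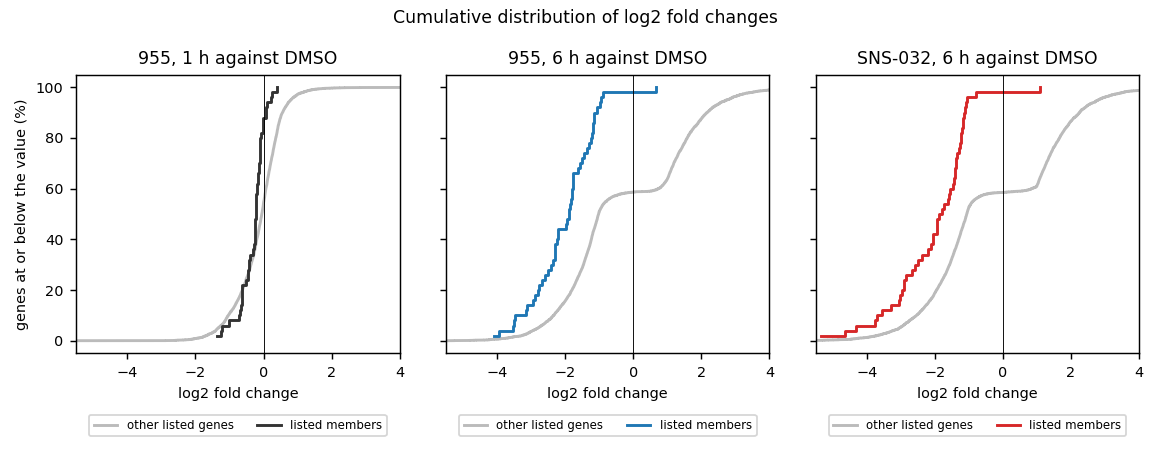
Cumulative share of genes (vertical axis, %) at or below each log2 fold change against DMSO (horizontal axis, log2), for the 50 listed ribosome biogenesis genes and the other listed genes, in the 3 comparisons, with the few values outside the drawn range not shown. At 6 h the curve of the 50 genes lies to the left, with medians of -1.89 and -1.83, and at 1 h its median is -0.22.

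The ribosomal RNA polymerase itself was among the genes that fell. RNA polymerase I is a dedicated enzyme, and POLR1A and POLR1B encode its large catalytic subunits. POLR1A had a log2 fold change of -1.81 (FDR 2.94e-06) with 955 and -1.73 (FDR 4.36e-06) with SNS-032 per the authors' deposited table, or 28.6% and 30.1% of the DMSO level. POLR1B was lower still, at 15.7% and 16.7% of that level. POLR1C, a subunit shared with RNA polymerase III, was at 27.8% after 955 and 47.3% after SNS-032, all 3 subunits being lower past the threshold with both compounds. After 1 h of 955 the authors' deposited table had them between -0.68 and -0.09 with FDR values of 0.349 or more.

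RNase MRP cuts the ribosomal RNA precursor, and it shares most of its proteins with RNase P, which trims transfer RNA precursors. POP1, POP4 and POP7, the listed 3 of 4 such proteins in this group, were lower with both compounds. POP1, the largest subunit, stood at 26.1% of the DMSO level with 955 and 24% with SNS-032, and POP4 at 20.3% and 23.1%. POP7, a small protein that binds the RNA of both enzymes, fell furthest, to log2 fold changes of -3.14 with 955 and -4.62 with SNS-032 per the authors' deposited table. That left 11.3% and 4.05% of the DMSO level.

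Of the proteins of the modifying particles, 3 of 8 are listed, all from the H/ACA class, which guides pseudouridine formation. DKC1, the pseudouridine synthase, was at 38.8% and 38.0% of the DMSO level after 6 h of 955 and SNS-032. GAR1, another core protein of the particle, had a log2 fold change of -2.25 (FDR 2.88e-08) with 955 and -3.03 (FDR 4.04e-10) with SNS-032 per the authors' deposited table. NOP10, the smallest core protein, had -0.90 (FDR 0.00228) and -1.25 (FDR 0.000102) in the authors' deposited table, so it was past the threshold with SNS-032 and short of the fold bound with 955. The difference between the compounds for NOP10 was 0.35 (95% interval -0.09 to 0.79, adjusted p = 0.467 in the approximate contrast).

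Among nucleolar proteins with structural or chromatin roles, all 5 named genes are listed. NCL (nucleolin) and NPM1 (nucleophosmin) are abundant nucleolar proteins, and their mRNAs had high average levels of 9.22 and 9.06 log2 CPM. NCL was at 29.3% of the DMSO level after 955 and 27.4% after SNS-032, and NPM1 at 44.9% and 43.5%, each lower past the threshold. Their reads are less certain than most, since GENCODE 29 names 45 pseudogenes after NPM1 and 2 after NCL. The counting rules are not stated. The same caution applies to NIP7 (3 named pseudogenes), IMP3, DDX10 and PES1 (2 each), and BRIX1 and LYAR (1 each). With NPM1 and NCL, these are the 8 listed genes that have a pseudogene named for them. LYAR, a nucleolar zinc finger protein, was lower at 16.6% and 17.8%. GNL3 (nucleostemin), a nucleolar GTPase, was at 29.5% and 41.0%. RRP8, a nucleolar methyltransferase-like protein, was lower with 955, with a log2 fold change of -1.21 (FDR 0.000193), and had -0.80 (FDR 0.00876) with SNS-032 per the authors' deposited table, short of the fold bound.

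The PeBoW complex of PES1, BOP1 and WDR12 is needed to mature the large subunit RNA, and the values of its 3 genes differed in size. PES1 went to 12.9% of the DMSO level after 955 and 15.7% after SNS-032. BOP1 was at 35.6% and 39.7%. WDR12 had a log2 fold change of -0.93 (FDR 0.00058) with 955 and -1.23 (FDR 2.4e-05) with SNS-032 per the authors' deposited table, so it was past the threshold with SNS-032 and short of the fold bound with 955, with a difference between compounds of 0.29 (95% interval -0.12 to 0.71).

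All 21 listed genes of the 23 for small subunit assembly were lower past the threshold with both compounds, with a median log2 fold change of -1.90 for 955 and -1.78 for SNS-032. UTP14A, which activates a helicase that frees the U3 particle, was lowest with 955, at 8.69% of the DMSO level and 7.34% with SNS-032. UTP23, a processome protein, was highest with 955, at 45.3% and 37.6%. IMP3 and IMP4, proteins of the U3 particle, were at 21.8% and 20.2% after 955, and RRP9, which binds the U3 RNA, was at 14.6%. NOB1, the nuclease that makes the final cut of the small subunit RNA, was at 11.5% and 13.3%, with a larger SE of 0.47 after 955 than most genes here.

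Large subunit assembly held both extremes of the 50 genes. Of its 14 genes 12 are listed, and 10 were lower after 955 and 11 lower and 1 higher after SNS-032. GRWD1, a chaperone for a ribosomal protein, had the lowest value after 955, a log2 fold change of -4.07 (FDR 1.03e-06), and -4.32 (FDR 6.34e-07) with SNS-032 per the authors' deposited table. That is 5.94% and 5.01% of the DMSO level. BRIX1, which takes part in early folding of the large subunit RNA, had the lowest value after SNS-032, at 2.46% of the DMSO level against 6.44% after 955. NOP16 was at 8.90% and 10.3%, and RRS1, which helps load a separate small ribosomal RNA, at 8.94% and 7.68%. RRP15 had a log2 fold change of -0.97 (FDR 0.00831) after 955, short of the fold bound, and -1.38 (FDR 0.000435) after SNS-032 in the authors' deposited table.

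NOP53, a late factor that recruits the RNA exosome to the large subunit precursor, went the other way. Its log2 fold change was 0.39 (FDR 0.0376) after 1 h of 955, 0.68 (FDR 1.85e-05) after 6 h and 1.10 (FDR 1.37e-08) after SNS-032 in the authors' deposited table, so it was higher past the threshold with SNS-032, although setting the mitochondrial mRNAs to 0 turned that value to -1.24. It had the highest average level of the 50 genes, 9.85 log2 CPM. The difference between the compounds was -0.42 (95% interval -0.65 to -0.20, adjusted p = 0.0349 in the approximate contrast), lower with 955. NOP53 and BRIX1 thus stand at opposite ends of the same assembly line after SNS-032, at 215% and 2.46% of the DMSO level.

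**Figure D2:**
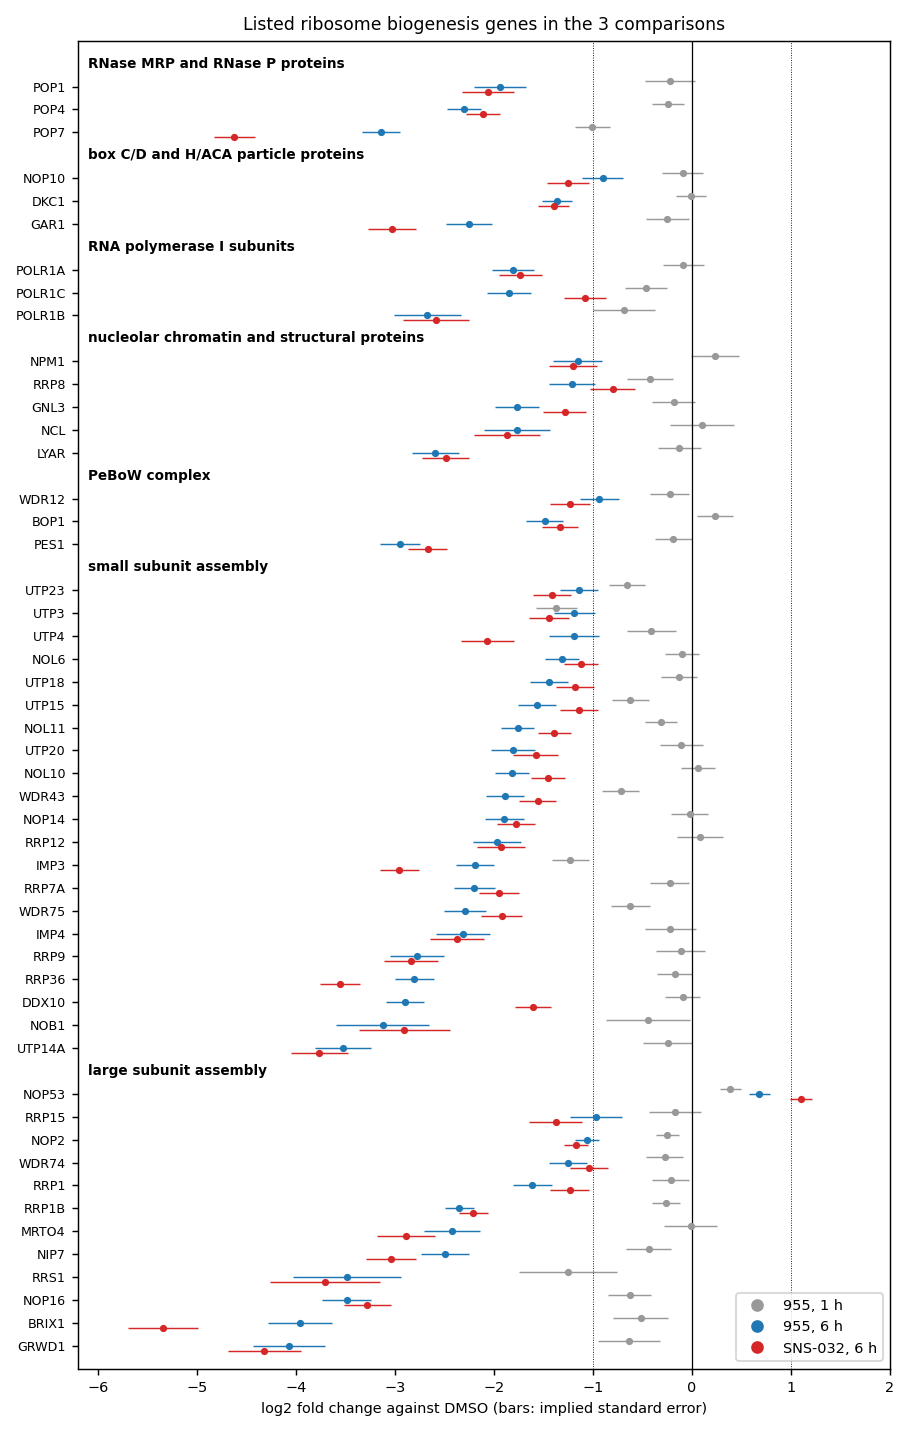
Log2 fold change against DMSO (horizontal axis) of each of the 50 listed genes, by role (vertical axis), after 1 h of 955 (grey), 6 h of 955 (blue) and 6 h of SNS-032 (red). Points are the authors' deposited values, bars the implied SE and dotted lines the fold bound of 1. At 6 h all genes but NOP53 lie left of 0, while at 1 h most lie within 0.5 of it.

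After 1 h of 955, 38 of the 50 genes had log2 fold changes within 0.5 of DMSO. The median in the authors' deposited table was -0.22, against -0.05 over all listed genes, and 44 values were negative. The genes past the threshold were 3 lower (UTP3, IMP3 and POP7) and 0 higher, beside 7.71% and 0.729% of all listed genes, so the members' share of lower calls was not above the background. With FDR under 0.05 alone, 5 were lower (beside 11.9% of listed genes), UTP23 and WDR43 being added, and NOP53 was higher, though below 0 on the mitochondrial scale. On that scale, which took 0.67 from the value of every listed gene, 16 genes were lower past the threshold at 1 h. The share of all listed genes on it was not computed. With the median of listed genes at 0 the count was 2, without POP7.

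UTP3, a small subunit processome protein, had the largest early fall. Its log2 fold change was -1.37 (FDR 0.000187) at 1 h, -1.19 (FDR 5.2e-05) at 6 h and -1.44 (FDR 4.04e-06) after SNS-032 in the authors' deposited table. It was thus already at 38.7% of the DMSO level at 1 h and at 43.9% at 6 h, a difference of 0.18 (SE 0.21, adjusted p = 0.409 in the approximate contrast). IMP3, of the U3 particle, had -1.23 (FDR 0.000199) at 1 h in the authors' deposited table, and its level went from 42.7% to 21.8% of DMSO between 1 h and 6 h. POP7 was lower with -1.01 (FDR 0.000837) at 1 h in the authors' deposited table, and went from 49.7% to 11.3%. RRS1 had a value as low, -1.26, but an FDR of 0.307 in the authors' deposited table and an SE of 0.50, so its early value could not be told from the spread between replicates.

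Among the 50 listed genes, UTP3, IMP3, POP7 and RRS1 hold the 4 lowest values at 1 h. They are also the 4 of these genes with a single coding exon in GENCODE 29 (build GRCh38). The wider pathway lists described below hold 5 more listed genes with a single coding exon, with 1 h values from -1.93 to -0.46. The UTP3 gene lies at chr4:70688479-70690551, POP7 at chr7:100706053-100707495, and IMP3 at chr15:75639085-75648706 on the minus strand. The sequences before the RefSeq starts of the 3 called genes are shown so that they can be compared. The annotations place the starts differently: the RefSeq start lies 53 bases downstream of the GENCODE gene start for UTP3, 68 for POP7 and 8482 for IMP3, so the IMP3 window is inside the GENCODE gene. Each line gives 250 bases before the RefSeq start (GRCh38.p14), 5′ to 3′ on the gene's strand, with capitals marking a match on either strand to any of 5 motifs: the E-box CACGTG, the ETS motif CCGGAAG, the GC box GGGCGG, the NRF1 motif CGCATGCG and the TATA box TATAAA.
UTP3: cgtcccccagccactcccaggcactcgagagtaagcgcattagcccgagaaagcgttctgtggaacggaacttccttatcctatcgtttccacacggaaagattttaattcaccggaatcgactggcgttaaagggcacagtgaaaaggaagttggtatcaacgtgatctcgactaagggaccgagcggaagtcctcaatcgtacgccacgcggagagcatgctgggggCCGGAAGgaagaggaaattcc
IMP3: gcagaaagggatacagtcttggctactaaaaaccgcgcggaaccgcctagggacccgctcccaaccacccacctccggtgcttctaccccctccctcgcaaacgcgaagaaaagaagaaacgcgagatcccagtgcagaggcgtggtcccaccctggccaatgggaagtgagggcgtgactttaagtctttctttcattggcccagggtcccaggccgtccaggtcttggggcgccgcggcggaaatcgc
POP7: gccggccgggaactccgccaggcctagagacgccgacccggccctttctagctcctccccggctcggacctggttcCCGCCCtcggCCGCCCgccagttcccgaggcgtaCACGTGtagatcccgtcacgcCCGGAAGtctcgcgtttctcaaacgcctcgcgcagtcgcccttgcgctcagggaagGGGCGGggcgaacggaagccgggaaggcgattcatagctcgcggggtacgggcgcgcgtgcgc
These windows lie at chr4:70688282-70688531 (plus strand), chr15:75640225-75640474 (minus strand) and chr7:100705871-100706120 (plus strand). UTP3 holds 1 ETS match, at -21 from the start. POP7 holds 5 matches, with an E-box at -140 and an ETS match at -119 between GC boxes, and IMP3 holds none of the 5 motifs in this window. No motif of the 5 was present in all 3 windows.

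At 1 h the 4 genes with a single coding exon stood apart from the other 46. The 4 genes with 1 coding exon had a median log2 fold change of -1.24 at 1 h (range -1.37 to -1.01). NOP10, with 2, had -0.09, the 3 genes with 3 to 5 had a median of -0.44, the 13 with 6 to 10 had -0.25 and the 29 with more than 10 had -0.18, in the authors' deposited table. Across the 50 genes, Pearson's r between the 1 h value and the number of coding exons was 0.41 and Spearman's rho 0.43, and without the 4 single-exon genes they were 0.23 and 0.27, as a description. Average level moved with the same value (r = 0.53, rho = 0.54), and its part in the pattern was not tested. Among the other listed protein-coding genes, which include the wider pathway genes described below, 24.2% of 384 genes with 1 coding exon were past the threshold at 1 h, 62 of 310 with 2, 13.9% of 1160 with 3 to 5, 4.54% of 1497 with 6 to 10 and 3.55% of 1859 with more than 10. Counted over all exons of the transcript, POP7 and IMP3 have 2 exons each, as has NOP10 (FDR 1.00 at 1 h in the authors' deposited table).

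**Figure D3:**
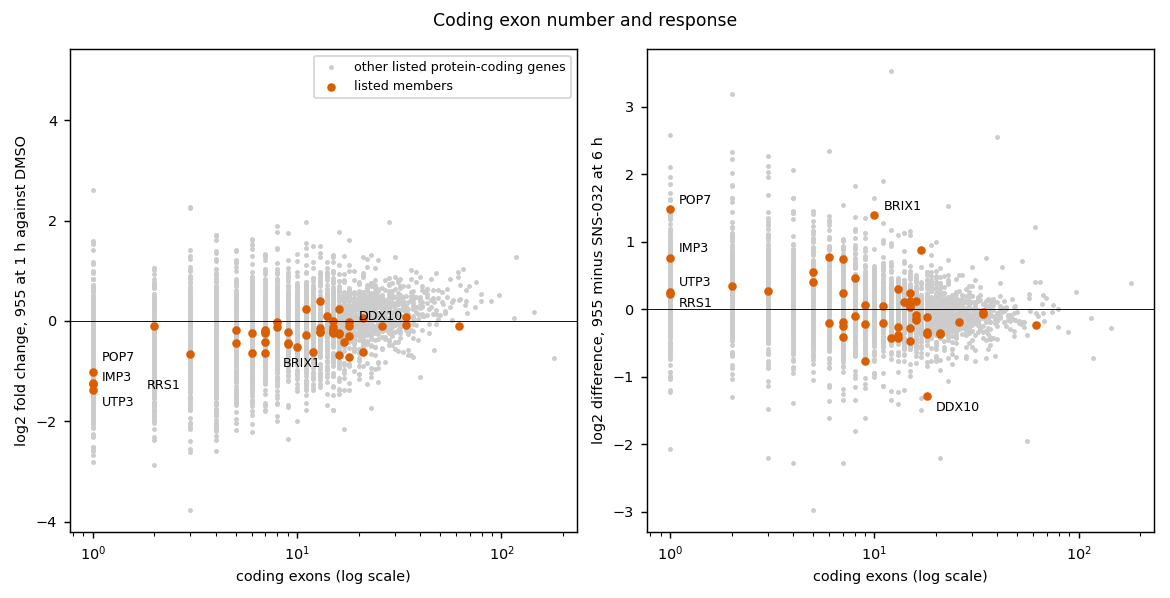
Number of coding exons (horizontal axis, log scale) against the log2 fold change after 1 h of 955 (left) and the log2 difference between 955 and SNS-032 at 6 h (right), for the 50 listed genes (orange) and other listed protein-coding genes (grey). The 4 orange genes with 1 coding exon are at or below -1.01 on the left and above 0 on the right.

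Most genes were much lower at 6 h than at 1 h of 955. The DMSO group, collected only at 6 h, cancels in this comparison, so length of exposure and time in culture cannot be told apart. In the approximate contrast of the 2 times, 38 of the 50 genes were lower at 6 h past the threshold and 0 higher, beside 35.6% and 27.0% of all listed genes. Against DMSO, 43 genes were lower past the threshold at 6 h and not at 1 h. Of all listed genes 50.1% were lower at 6 h and 7.71% at 1 h, and the share lower only at 6 h was not computed. The median difference was -1.72, against -0.45 over all listed genes. The largest were those of BRIX1, with -3.44 (SE 0.30), GRWD1, with -3.43 (SE 0.34, adjusted p = 8.58e-07), UTP14A, with -3.28 (SE 0.27, adjusted p = 2.93e-09), NOP16, with -2.86 (SE 0.23, adjusted p = 2.02e-10), and DDX10, with -2.80 (SE 0.19). No p is given for the 6 h values of BRIX1, DDX10 and POP7, which were part of what chose them. DDX10, an RNA helicase of small subunit assembly, was at 93.8% of the DMSO level at 1 h and 13.4% at 6 h. UTP3 and NOP53 were the 2 genes without a lower value at 6 h than at 1 h.

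Values with the 2 compounds lay close together, and 41 of the 50 genes differed by less than 0.5 (log2) between 955 at 0.1 µM and SNS-032 at 1 µM. The median difference, 955 minus SNS-032, was -0.08 (quartiles -0.26 and 0.25). Over all listed genes it was -0.001 (quartiles -0.20 and 0.25), so the closeness was not particular to these genes. The 95% interval of the difference lay within -1 and 1 for 37 genes, which bounds but does not exclude smaller differences. For the other genes the interval reached a difference of 1 or more. The comparisons share the DMSO samples. Of the 47 genes not chosen for a difference between the compounds, the approximate contrast put 0 past the threshold under the authors' scaling. Of all listed genes 0.260% were lower and 0.851% higher with 955. Among the 47 genes 10 had an unadjusted p under 0.05, with no share of all listed genes computed. On the mitochondrial scale 6 of all 50 genes were past the threshold, 1 lower and 5 higher with 955, and the median difference was 0.17 instead of -0.08.

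POP7 was at 11.3% of the DMSO level after 955 and 4.05% after SNS-032, a log2 difference of 1.48 (SE 0.20). BRIX1 was at 6.44% and 2.46%, a difference of 1.39 (SE 0.34). DDX10 went the other way, at 13.4% after 955 and 32.9% after SNS-032, a difference of -1.29 (SE 0.19). Their genes differ in structure: POP7 spans 1443 bases with 1 coding exon, BRIX1 has 10 coding exons, and DDX10 has 18 over 275906 bases, the longest span of the 50. The promoters of DDX10 and BRIX1 are shown because these genes responded in opposite order to the compounds, and that of NOP53 because it was the gene that did not fall.
BRIX1: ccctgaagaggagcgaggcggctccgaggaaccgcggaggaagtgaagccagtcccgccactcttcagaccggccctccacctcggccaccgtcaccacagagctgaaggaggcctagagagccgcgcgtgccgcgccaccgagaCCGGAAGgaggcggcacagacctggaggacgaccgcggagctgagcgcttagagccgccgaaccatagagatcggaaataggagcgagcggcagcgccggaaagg
DDX10: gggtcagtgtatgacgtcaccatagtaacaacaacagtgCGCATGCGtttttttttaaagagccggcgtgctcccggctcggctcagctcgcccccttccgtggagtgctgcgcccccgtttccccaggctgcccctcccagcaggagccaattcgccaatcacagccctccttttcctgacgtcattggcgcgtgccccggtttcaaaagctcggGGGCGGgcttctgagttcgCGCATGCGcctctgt
NOP53: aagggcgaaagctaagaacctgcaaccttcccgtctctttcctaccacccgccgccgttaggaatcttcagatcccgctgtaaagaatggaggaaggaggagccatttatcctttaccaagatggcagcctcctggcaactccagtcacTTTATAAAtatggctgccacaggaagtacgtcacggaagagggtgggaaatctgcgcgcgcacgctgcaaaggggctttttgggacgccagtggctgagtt
These windows lie at chr5:34915461-34915710, chr11:108664819-108665068 and chr19:47745296-47745545, all on the plus strand. The RefSeq start lies 335 bases downstream of the GENCODE gene start for BRIX1, 44 for DDX10 and 24 for NOP53. The BRIX1 window is therefore inside the GENCODE gene. BRIX1 has 1 ETS match at -105. DDX10 has NRF1 matches at -211 and -15 and a GC box at -34. NOP53 has 2 overlapping TATA box matches, 1 on each strand, at -101 and -99, and is 1 of 2 genes of the 51 with a matched promoter that hold a TATA box in this window.

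Beyond those 3 genes, smaller differences had an adjusted p under 0.05 in the approximate contrast without the fold bound. Of the 47 other genes 1 was lower and 2 were higher with 955, beside 56 and 101 of the 5759 listed genes. IMP3 was lower with SNS-032 by 0.76 (95% interval 0.36 to 1.17, adjusted p = 0.0348), and so was RRP36, a small subunit factor, by 0.75 (0.34 to 1.16, adjusted p = 0.0391). Both adjusted p-values are near the bound of 0.05 and rest on the approximate SE. UTP4, of the processome, differed by 0.88 (0.34 to 1.41, adjusted p = 0.0706), GAR1 by 0.78 (0.29 to 1.27, adjusted p = 0.0855) and POLR1C by -0.77 (-1.22 to -0.32, adjusted p = 0.0596), none of which passed the adjustment. For DKC1 the difference was 0.03 (-0.29 to 0.35), and for RRS1 0.22 (-1.03 to 1.47), an interval too wide to bound it below the fold threshold.

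**Figure D4:**
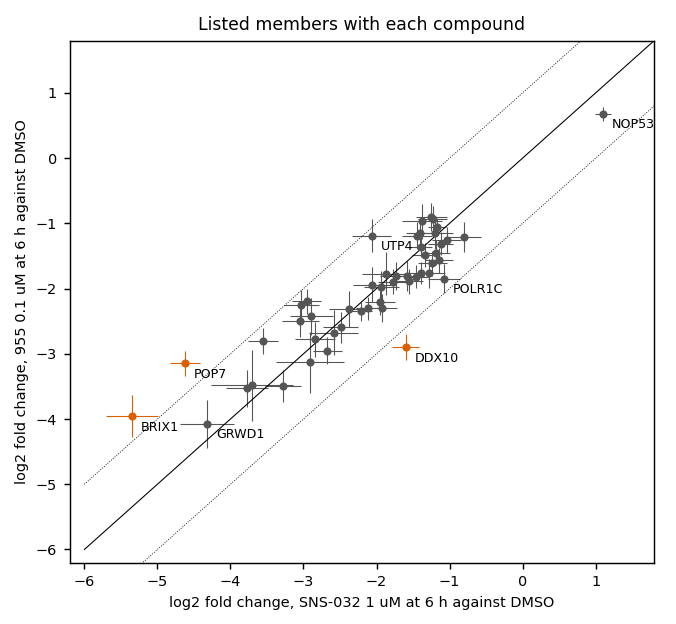
Log2 fold change of the 50 genes with SNS-032 at 1 µM for 6 h (horizontal axis) and 955 at 0.1 µM (vertical axis), both against the same DMSO samples, with implied SE as bars. The solid line marks equal values and the dotted lines a difference of 1. Only BRIX1 and POP7 (above) and DDX10 (below), in orange, lie past a dotted line.

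All 8 of the 50 genes with 5 or fewer coding exons had lower values with SNS-032 than with 955, against 15 of the 42 with more. These counts include POP7 among the 8 and BRIX1 and DDX10 among the 42. Those genes were chosen for their difference between the compounds, so the counts rest in part on values that chose them. Among other listed protein-coding genes the shares were 63.7% of 1854 and 41.0% of 3356. On the mitochondrial scale the counts were 8 of 8 and 28 of 42, and the shares 84.5% and 79.9%. Pearson's r between the difference and the number of coding exons was -0.34 and Spearman's rho -0.45 over the 50 genes, and -0.18 and -0.28 over the 5210 other listed protein-coding genes. Without BRIX1, DDX10 and POP7, r was -0.31 and rho -0.39. These are descriptions, and the points share their libraries and the DMSO group.

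Promoters of the pathway were searched for the same 5 motifs in the 250 bases before the RefSeq start. RefSeq promoters were matched for 51 of the 60 genes, 43 of them listed. The ETS motif was in 35.3% of the 51, against 17.2% of 4326 listed protein-coding genes and 8.82% of all 27305 promoters. The NRF1 motif was in 11.8% (6 of 51), against 3.37% and 1.86%. The E-box CACGTG, the preferred site of MYC with MAX, was in 13.7% (7 of 51), against 8.62% and 6.49%. GC boxes were in 66.7%, close to the 66.3% of listed protein-coding genes, and the TATA box in 3.92%, against 6.08%. The shares are descriptions of letters in a window and were given no test.

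Start sites of 21 listed genes lie within 500 bases of the start of a gene on the opposite strand in GENCODE 29. For 6 of them the neighbour is itself in the authors' deposited table, and such a neighbour is there only because it changed somewhere. Of these 6 neighbours 5 were higher past the threshold after 6 h of 955 and 4 after SNS-032, beside 35.2% and 37.8% of all listed genes, while on the mitochondrial scale 0 of the 6 were above 0 after 955. WDR12, for example, had a log2 fold change of -0.93 and its neighbour NBEAL1 1.67 (FDR 5.41e-10), in the authors' deposited table. RRP12, a factor of small subunit export, had -1.97 and its neighbour PGAM1, a glycolytic enzyme, 1.37 (FDR 1.49e-10) in the authors' deposited table. The exception was ZBTB49 beside LYAR, with -2.58 (FDR 1.72e-07) in the authors' deposited table. Since the use of strand in counting is not stated, reads of overlapping opposite genes could not be told apart.

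Other genes of the pathway, from lists wider than the 60, behaved alike. Of 149 such genes 94 are listed, and 85 were lower and 2 higher past the threshold after 6 h of 955, and 88 lower and 2 higher after SNS-032. Of all listed genes 50.1% were lower and 35.2% higher after 955, and 52.5% and 37.8% after SNS-032. The same shares stand beside the group counts that follow, and these genes too are listed only because they changed somewhere. Their medians were -1.70 and -1.68. Of other small subunit factors 27 of 28 listed genes were lower with each compound, and of other large subunit factors 31 of 32 with 955 and 32 of 32 with SNS-032. NGDN had the lowest small subunit value after 955, -3.98 (FDR 0.0005), and DDX52, a helicase, the highest, -0.78 (FDR 0.0621), in the authors' deposited table. Among large subunit factors NIFK was lowest, at -3.73 (FDR 1.03e-11), and PA2G4 highest, at -1.05 (FDR 0.0684), in the authors' deposited table.

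Factors of RNA polymerase I were lower in 7 of 10 listed genes after 955 and 8 after SNS-032. POLR1G, a polymerase I subunit of low average level, was lowest, at -3.07 (FDR 0.00436) after 955 in the authors' deposited table. TAF1C, of the promoter selectivity factor, was higher at 1.05 (FDR 1.01e-07) after 955 and 1.16 (FDR 1.88e-08) after SNS-032 in the authors' deposited table, turning to -1.02 and -1.18 on the mitochondrial scale. Assembly factors of small nucleolar RNA particles were lower in 7 of 8 with each compound. NUFIP1 was lowest, at -2.86 (FDR 5.02e-10) after 955, while PIH1D1 was higher, at 1.04 with each compound in the authors' deposited table and at -1.03 and -1.30 on the mitochondrial scale.

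The RNA exosome, which trims ribosomal RNA precursors, was lower in 8 of 11 listed genes after 955 and 9 after SNS-032, from EXOSC4 at -3.26 (FDR 5.34e-06) to C1D at -0.30 (FDR 0.387) after 955 in the authors' deposited table. Other RNase P and MRP proteins were lower in 5 of 5 with each compound, from RPP25L at -2.70 to RPP38 at -1.67 after 955 in the authors' deposited table. At 1 h of 955, 2 of the 94 genes were past the threshold, both lower, beside 7.71% of all listed genes: RIOX1, an oxygenase of the nucleolus, at -1.93 (FDR 2.23e-06), and RPP38 at -1.51 (FDR 0.000278) in the authors' deposited table. Both have a single coding exon. Of the 94 genes 5 have a single coding exon, with 1 h values from -1.93 to -0.46, and only these 2 of the 5 were past the threshold. ABT1, named after its values were seen, was lower with SNS-032 than with 955 by 1.24 (adjusted p = 0.0037 in the approximate contrast).

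**Figure D5:**
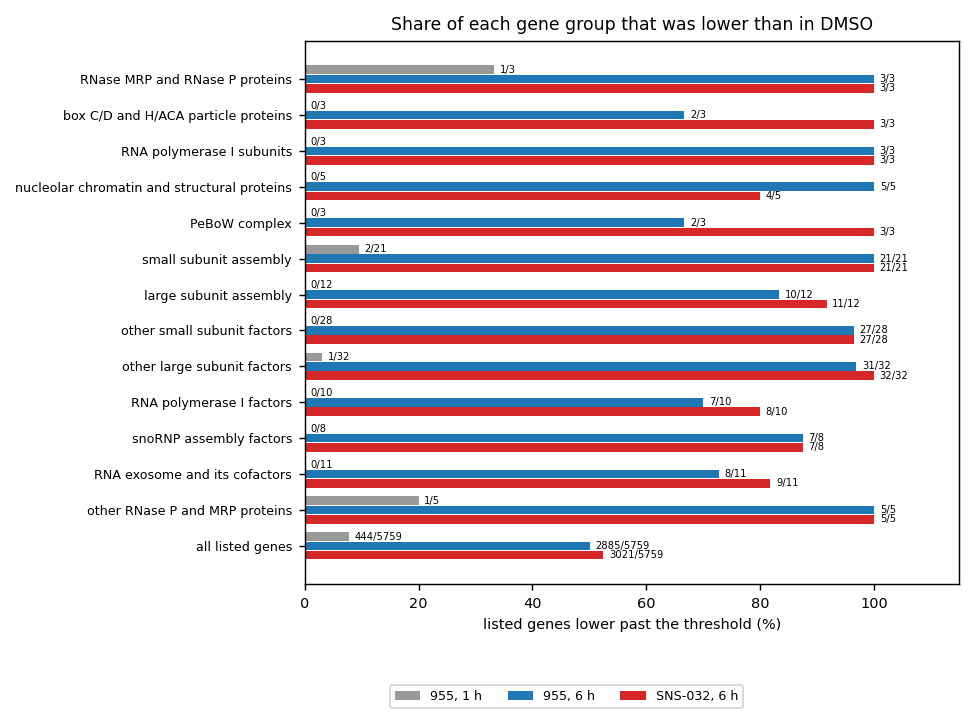
Share of listed genes (horizontal axis, %) that were lower than in DMSO past the threshold, for the role groups of the 50 genes, the wider pathway lists and all listed genes (vertical axis), with counts beside each bar. At 6 h the shares of the pathway groups run from 66.7% to 100%, beside 50.1% and 52.5% of all listed genes.

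The noncoding RNA partners of these proteins had values opposite to the mRNAs of the proteins. Of 15 noncoding RNA genes 7 are listed, all 7 higher past the threshold after 6 h of both compounds, under the authors' scaling. Of all listed genes 35.2% were higher after 955 and 37.8% after SNS-032. RPPH1, the RNA of RNase P, had log2 fold changes of 4.44 (FDR 2.48e-10) after 955 and 6.07 (FDR 4.4e-12) after SNS-032 in the authors' deposited table, where the protein genes POP1, POP4 and POP7 fell. SNORD3A, a U3 gene, had 5.22 (FDR 2.56e-14) and 7.0 (FDR 6.43e-16), and SNORD13, a guide for small subunit RNA acetylation, 9.84 (FDR 3.08e-08) and 11.1 (FDR 3.27e-09) in the authors' deposited table. Average levels over all samples were 4.19 log2 CPM for RPPH1 and 4.73 for SNORD3A. They were only 1.44 for SNORD13 and from 0.11 to 1.44 for the other listed U3 genes, so those large ratios start from very low levels in DMSO. At 1 h of 955 RPPH1 and SNORD13 were higher past the threshold, at 1.36 (FDR 0.00757) and 4.78 (FDR 0.0403) in the authors' deposited table. On the mitochondrial scale RPPH1, at 0.69, was short of the fold bound. SNORD13, at 4.11, was past that bound but not past the threshold by its adjusted p. That adjusted p is an upper bound, since unlisted genes could not be ranked, so it is not like the authors' FDR. The U3 genes SNORD3A, SNORD3B-1, SNORD3B-2, SNORD3C and SNORD3D are near-identical copies whose reads may be split or shared. These RNAs lack a poly(A) tail, and the libraries were made with an mRNA kit.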

How the data were processed

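RNA-seq libraries of 12 MOLT4 samples were made with a BGI mRNA kit, per the labels' protocols. The submitters' processing notes name hg38 and DESeq2, with no roles, whereas the column names in the file headers (logFC, logCPM, F, PValue, FDR) are not those of DESeq2, so the test behind the FDR is not given in the sources used here, nor are the aligner, the counting rules or the filters. The deposited file is a table of the authors' comparisons of each treated group with DMSO, and its log2 fold changes and average log2 CPM are taken as deposited. The p-value and FDR columns are the authors', and the FDR matched an adjustment over 28395 tests (ranks whole within 0.01 for 81.1% of 3083 values). F is a deposited score.

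The table lists 5759 genes, 5727 matched to RefSeq (GRCh38.p14) by ID. From the deposited values were computed the percent of the DMSO level, an implied SE (the size of the log2 fold change divided by the root of F), and degrees of freedom from F and p, whose most common value was 23.3. Differences between treated groups are differences of log2 fold changes, with the root mean square of the SEs, a t distribution, Benjamini-Hochberg adjustment over the 5759 genes and pointwise 95% intervals. That SE takes DMSO to vary as much as the treated groups, which was not tested. If DMSO varied less, the intervals are too narrow. The scripts were tested on simulated data. Gene structure came from GENCODE 29, promoters from RefSeq, with Python 3.11.15, numpy 2.4.6, scipy 1.17.1 and pandas 2.3.3.

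Members and lists were chosen with earlier results of these data known. Named genes are BRIX1, DDX10 and POP7, the lowest and highest of each role group after 6 h of 955, those past a threshold at 1 h or between compounds, those higher at 6 h, the 5 largest differences between 6 h and 1 h, well-known core factors, and in other lists the lowest, highest and noncoding genes. Coding exons were used after exons of all kinds had been counted. 1 marker gene of other cell types is not reported here and was left out of its list. Counts and depth per sample are not analysed here, so precision is known only through the SE. Alternatives were other thresholds, scalings, level bounds, SEs and adjustments.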

Additional observations from a re-analysis of the deposited data

Results flagged for a closer look

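The values of 3 genes with the compounds are given as a description with no test, since the genes were chosen for that difference. POP7 and BRIX1 were lower with SNS-032, with log2 differences (955 minus SNS-032) of 1.48 and 1.39, and DDX10 was lower with 955, with -1.29. Between 6 h and 1 h of 955, 38 genes differed past the threshold in the approximate contrast, all lower at 6 h. With no DMSO at 1 h, length of exposure and time in culture cannot be told apart there.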

How the results depend on the processing

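Directions and calls were the same under most alternatives. For 955 at 1 h the count of genes past the threshold, 3, became 0 at a fold bound of 1.5 (log2), 6 without a fold bound, 16 on the mitochondrial scale and 0 among the 19 genes with an average level of at least 5 log2 CPM. For 955 at 6 h the count of 46 became 23 with the median of listed genes set to 0 and 17 among those 19 genes. For SNS-032 the count of 49 became 30 at the bound of 1.5, 20 with the listed median at 0 and 19 of the 19. Between the compounds the count of 3 became 0 at the bound of 1.5, 6 without a fold bound, 6 on the mitochondrial scale, 1 among the 19 and 0 without BRIX1, DDX10 and POP7. Under the stricter adjusted p, the other SEs and the adjustment over 28395 tests it was 2, since BRIX1 was then no longer past the threshold. Between 6 h and 1 h the count of 38 became 16 among the 19. The cause of these moves was not tested, apart from the fewer genes and the bounds that the alternatives themselves set.

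On the mitochondrial scale NOP53 turned to -1.39 with 955 at 6 h, -1.24 with SNS-032 and -1.18 between the times, UTP3 to -1.30 between the times, TAF1C to -1.02 and -1.18, and PIH1D1 to -1.03 and -1.30. With the listed median at 0, WDR74 turned to 0.0271 with SNS-032. No paired analysis was possible because the deposited table holds comparisons and no values per sample, and for the same reason leaving out each replicate was not run. Depth is unknown. After 6 h of either compound the SE was largest for RRS1, NOB1 and GRWD1.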
